A study of Mus musculus with 4 samples.

Results

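The forkhead genes encode transcription factors that share a winged-helix DNA-binding domain, and 43 of them were followed here through whole-genome bisulfite sequencing of mouse embryonic stem cells. They were taken by name, and every CpG (a cytosine followed by a guanine) from 5 kb before to 5 kb after each gene's RefSeq span on mm10 was used, in 1 kb bins. The 43 are among 21631 protein-coding genes of the autosomes and X, and their windows held 2669 of the 2506151 bins with a listed CpG. By span, 25 were short (under 10 kb, median 3.23 kb) and 18 were long (10 kb or longer, median 49.9 kb), from Foxs1 with 1.31 kb to Foxp1 with 597 kb.

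Forkhead factors fall into lettered subfamilies. FOXA proteins are pioneer factors of endoderm that can bind closed chromatin, the FOXB, FOXC, FOXD, FOXE, FOXF, FOXL and FOXQ genes are regulators of tissue patterning that are mostly silent in stem cells, FOXH1 carries Nodal signals together with SMAD proteins, FOXO factors are held out of the nucleus by AKT phosphorylation, and FOXP, FOXN, FOXJ and FOXK genes are in part broadly expressed. Patterning genes are typically short, embedded in broad CpG islands, and held by Polycomb repressors in stem cells, and islands are generally free of methylation whereas gene bodies are generally methylated. Ogt, the gene targeted in the study, encodes O-GlcNAc transferase, which attaches N-acetylglucosamine to serines and threonines of many nuclear proteins, and which is known to bind the TET enzymes that oxidise 5-methylcytosine.

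Both groups were the Ogt fl/fl line, grown on feeder fibroblasts in medium with LIF and serum replacement. The 2 Ogt inducible knockout (iKO) libraries came from cells cultured with 4-OHT (4-hydroxytamoxifen) for 6 days and sorted for YFP, and the 2 control libraries from cells cultured without it, all sorted as viable cells with surface markers. The labels name CD90.2 as the marker of the stem cells and CD326 as the one used to leave out feeders. CD90 is generally known from fibroblasts and CD326 (EpCAM) from stem cells, so the labels may have them exchanged, and which cells were kept could not be checked. The agent, the YFP sort and the loss of Ogt coincided, so their parts in any difference cannot be told apart. The labels name 1 floxed line, do not say which recombinase acts, and do not say whether replicates were separate cultures, so p-values measure only the spread between these samples. Bisulfite leaves 5-methylcytosine and 5-hydroxymethylcytosine alike unconverted, and a methylation level here is the sum of both.

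The libraries held 64273609 to 79929994 reads over CpGs, and the iKO libraries were the deeper ones. Only CpGs read in all 4 libraries were used (16341360 of 20677079 listed, 79.0%), at a mean depth of 3.46 to 4.22 reads. A single CpG is therefore coarse, and each value below is the methylated share of all reads pooled over a region. Over all used CpGs the pooled level of the iKO libraries was 66.4% and 64.0%, and that of the controls 71.2% and 74.8%, so the whole genome was lower in the iKO group and the controls lay further apart from each other. Read depth over Ogt itself (chromosome X, 101640011 to 101684351), per listed CpG and relative to the rest of that chromosome, was 1.23 ± 0.0340 (SD, n = 2) in iKO and 1.24 ± 0.0671 (SD, n = 2) in controls, which shows no loss of the gene as a whole. The deleted exons are not given in the sources used here.

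The promoter sequences below show forkhead starts of higher and lower CpG content. RefSeq promoters (GRCm38.p6) were matched for 28 of the 43 genes, with 33 start sites. The 250 bases before the start are printed 5′ to 3′ on the gene's own strand with each CpG in capitals, for 3 CpG-rich genes of the stem cell or patterning kind and 2 CpG-poor ones, chosen after their values were seen. Foxd3 is chr4:99656049-99656298 (plus strand), Foxl2 chr9:98955357-98955606 (plus), Foxo1 chr3:52268087-52268336 (plus), Foxi1 chr11:34208090-34208339 (minus) and Foxn1 chr11:78386609-78386858 (minus).
Foxd3: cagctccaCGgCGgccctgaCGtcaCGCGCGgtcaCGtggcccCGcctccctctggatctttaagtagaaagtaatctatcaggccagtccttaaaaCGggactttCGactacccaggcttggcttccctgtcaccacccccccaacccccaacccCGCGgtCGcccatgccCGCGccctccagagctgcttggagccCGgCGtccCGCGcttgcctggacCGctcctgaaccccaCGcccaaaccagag
Foxl2: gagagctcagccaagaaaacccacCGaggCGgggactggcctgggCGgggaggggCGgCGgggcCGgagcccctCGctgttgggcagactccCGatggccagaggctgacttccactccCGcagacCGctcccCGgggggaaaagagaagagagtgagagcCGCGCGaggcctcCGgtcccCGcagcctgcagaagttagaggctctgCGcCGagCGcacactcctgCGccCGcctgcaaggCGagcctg
Foxo1: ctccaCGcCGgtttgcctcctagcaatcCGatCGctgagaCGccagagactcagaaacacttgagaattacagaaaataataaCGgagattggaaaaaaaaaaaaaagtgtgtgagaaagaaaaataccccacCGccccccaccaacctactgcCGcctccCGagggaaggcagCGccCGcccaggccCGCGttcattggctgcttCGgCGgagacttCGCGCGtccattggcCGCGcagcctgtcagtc
Foxi1: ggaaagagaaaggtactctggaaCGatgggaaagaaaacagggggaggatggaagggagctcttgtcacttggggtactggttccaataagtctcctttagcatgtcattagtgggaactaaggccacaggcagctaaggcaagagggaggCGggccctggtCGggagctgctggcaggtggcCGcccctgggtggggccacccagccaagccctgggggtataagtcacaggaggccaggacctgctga
Foxn1: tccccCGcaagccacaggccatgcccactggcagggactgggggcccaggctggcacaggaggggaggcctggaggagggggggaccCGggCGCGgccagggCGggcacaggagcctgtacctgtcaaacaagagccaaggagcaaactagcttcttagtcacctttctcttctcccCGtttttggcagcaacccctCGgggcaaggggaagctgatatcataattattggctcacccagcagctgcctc

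These stretches hold 21 CpGs for Foxd3, 22 for Foxl2, 20 for Foxo1, 4 for Foxi1 and 7 for Foxn1. Over the 300 bases of the RefSeq promoter table, the forkhead promoters had a median of 22 CpGs against 7 for all 32619 promoters of the autosomes and X. In the 1 kb centred on the start, Foxd3, which keeps stem cells self-renewing and later marks neural crest, had levels of 0.800% and 0.543% in iKO and 2.04% and 2.02% in controls (98 to 184 reads a library). Foxl2, an ovary determinant, had 0 methylated reads among 110 to 179 in every library, which allows a level of up to 1.68% to 2.73%. Foxo1, an insulin-responsive factor, lay at 0.588% and 0.667% in iKO and 0% and 2.54% in controls. Foxi1, a factor of ion-transporting cells in ear and kidney, was methylated, at 70.2% and 54.1% in iKO and 67.6% and 88.0% in controls, from only 25 to 47 reads. Foxn1, the thymic epithelial factor, lay at 41.2% and 51.9% in iKO and 45.0% and 85.7% in controls, from 20 to 51 reads. The 3 CpG-rich starts shown were near 0% in both groups, and the 2 CpG-poor ones were partly to mostly methylated with overlapping groups. Not every CpG-poor start was that high: Foxi2, with 5 CpGs over the 300 bases, had 33.3% and 9.52% in iKO and 9.09% and 31.3% in controls, from as few as 11 reads. The start listed for Foxn3 (99450074 on chromosome 12, minus strand, 6 CpGs over the 300 bases) lies inside the gene's span of 99190081 to 99563667. There the groups did not overlap, with 47.8% and 31.3% in iKO against 64.6% and 82.9% in controls, from 32 to 69 reads. The island bins in the Foxn3 window were low, at 0.816% and 0.599% in iKO and 0.767% and 0.714% in controls. The forkhead core motif TGTTTAC (both strands) occurred in the 250 bases before 1 of the 33 forkhead starts, that of Foxa1, against 3.19% of all promoters.

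CpG islands of the forkhead genes were close to 0% in both groups, and 0 genes were called. Island bins were 1 kb bins with at least 50 listed CpGs, and 35 genes had enough reads for a test (21 short, 14 long). Their mean level was 2.38% and 2.37% in iKO and 2.28% and 2.18% in controls, a difference of 0.143 points (pooled SD 0.0518, two-sided exact permutation p = 0.33, the smallest that 2 against 2 libraries allow). With all 4 libraries its sign depended on Foxj3, whose island was at 0% and 12.1% in iKO and 1.12% and 0.437% in controls (5.26 points). The other genes had a mean of 2.45% in iKO replicate 1 and 2.08% in iKO replicate 2, against 2.32% and 2.23% in controls. Without Foxj3, a step chosen after its values were seen, the mean of the other 34 differed by -0.0079 points with overlapping groups (exact permutation p = 1), and the median over all 35 was -0.18, with 22 lower and 11 higher. On the same 35 genes the mean difference was 0.0909 to 0.194 with each library left out. Among runs with a library left out, it turned negative only where dropping a control also let in 1 more gene with enough reads, to -0.0051 points without control replicate 1 (with Foxi2) and -0.0219 without control replicate 2 (with Foxn4). With island bins of at least 30 listed CpGs it was also negative, at -1.15 points. Of the 35, 0 were called lower or higher (percent called over all 10892 gene islands: 0), and edgeR also called 0 of the 35. A call takes a difference of at least 10 points, and the highest control mean of the 35 was 7.18% (Foxj1). No forkhead island could therefore be called lower, and the 0 lower calls say nothing on loss of methylation. With the adjusted p alone, 0 of the 35 passed. At an unadjusted p under 0.05 there were 0 of the 35 (172 of all 10892), 1 with edgeR (452 of all) and 2 with limma on logit levels (676 of all). Both iKO libraries were below both controls in 2 islands and above them in 5, against 19.7% and 8.63% of all gene islands. Of 85 single island bins with enough reads, 76 were under 10% and 0 at 20% or more. The highest were in the Foxf1 window (mean 17.8% in iKO and 19.9% in controls) and inside Foxo3 (17.8% and 14.5%). Foxo4 and Foxl2 had 0 methylated island reads in all 4 libraries, which allows up to 6.82% for Foxo4 and 1.49% for Foxl2 in the shallowest library.

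Over the other 10857 protein-coding genes with a tested island, the mean was lower in iKO, at 2.97% against 3.75% in controls. For short genes, the forkhead island mean minus that of other short genes was -0.760 points in iKO and -1.55 in controls, a difference of 0.794 (pooled SD 0.162, two-sided exact permutation p = 0.33). The medians did not show this, with -0.33 points for the 21 short forkhead islands and -0.22 for the 2774 other short genes. Short Hox genes, the homeobox patterning clusters, lay at 2.66% in iKO and 2.64% in controls, and the forkhead minus Hox gap differed between groups by -0.00456 points (pooled SD 0.115, exact permutation p = 1).

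The other 8 genes had no testable island. Foxs1, Foxi1, Foxr1, Foxn1, Foxp3 and Foxr2 have no bin of 50 CpGs in their windows. In Foxi2 and Foxn4 the only island bin had too few reads, 16 in control replicate 1 for Foxi2 and 15 in control replicate 2 for Foxn4. For the 6 without such a bin the CpG-densest bin was partly or largely methylated in most libraries. It was 63.8% and 59.2% in iKO and 61.6% and 89.5% in controls for Foxs1, a gene expressed in cells around blood vessels. It was 17.98% and 28.3% against 51.4% and 42.7% for Foxr1, where the groups did not overlap. In Foxn1 it was 19.0% and 34.0% against 23.1% and 53.6%, with overlap. In Foxp3, the regulatory T cell factor, and Foxr2 the densest bin held only 1 and 6 used CpGs.

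**Figure D1:**
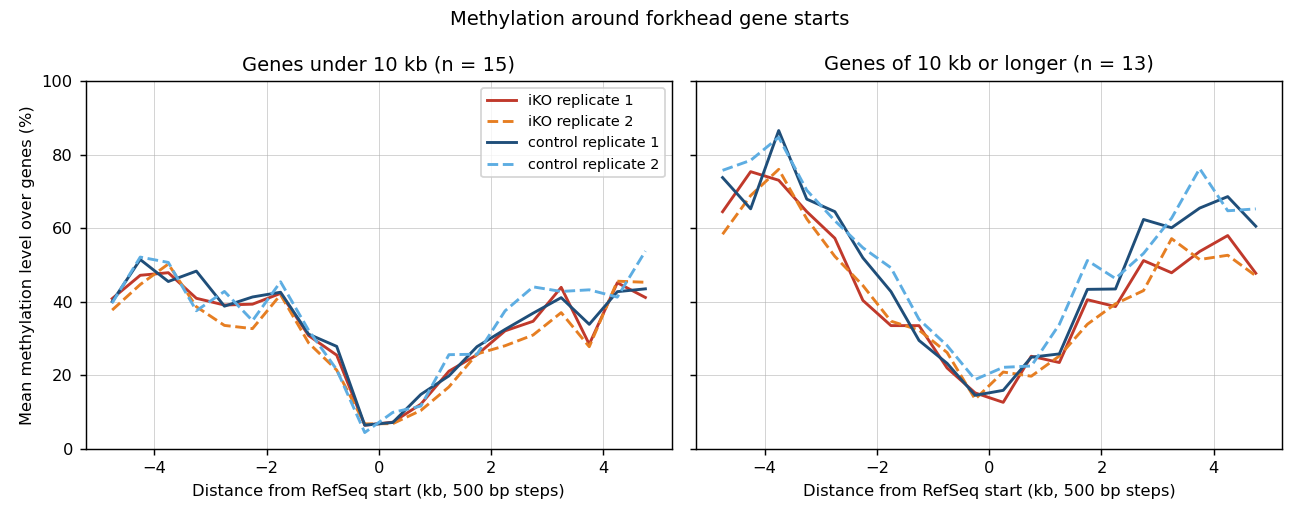
Mean methylation level (%, vertical axis) in 500 bp steps from 5 kb before to 5 kb after the RefSeq start (horizontal axis, kb) for 15 short (left) and 13 long (right) forkhead genes with a known start, 1 line per library. A step averages only the genes with a value there, 9 to 15 short and 6 to 13 long ones. The steps of a line are thus not all of the same genes. In the 500 bp before the start the short genes (13 with a value) lie at 4.41% to 6.77% in all 4 libraries. The long ones (13) lie at 13.5% to 18.8%, and the lines of the groups part on the shoulders of the long genes.

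Away from islands the long and the short genes differed. Gene bodies were taken as the bins inside a gene that are not island bins, and 39 bodies had enough reads (all but Foxb2, Foxd4 and Foxe1, which have no other bin than island bins inside the gene, and Foxe3, whose single such bin of 8 listed CpGs had only 19 reads in control replicate 1). The mean over these 39 was 45.9% and 43.3% in iKO and 48.5% and 51.4% in controls, a difference of -5.36 points (pooled SD 2.00, two-sided exact permutation p = 0.33). The body minus island gap was 42.2 points in iKO and 47.7 in controls and differed by -5.50 (pooled SD 2.03, exact permutation p = 0.33). This gap sets 39 bodies against 35 islands, so its gene sets differ. Foxb2, Foxd4, Foxe1 and Foxe3 count only in islands. Foxi1, Foxi2, Foxn1, Foxn4, Foxp3, Foxr1, Foxr2 and Foxs1 count only in bodies, with differences of -14.9 to -5.88 points.

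All 18 long bodies were lower in iKO on average. Their mean was 61.2% and 58.0% in iKO and 67.0% and 69.9% in controls, a difference of -8.88 points (pooled SD 2.14, exact permutation p = 0.33). In 16 of the 18 both iKO libraries lay below both controls, against 82.6% of all 19583 bodies tested and 92.7% of the 13745 bodies of other long genes. Foxm1 and Foxo6 were the other two, with overlapping groups. The mean of the other long genes differed by -8.55 points, and the gap between long forkhead genes and those genes changed by only -0.328 points between groups (pooled SD 0.612, exact permutation p = 0.667).

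The 21 short bodies had a smaller mean difference and values of both signs, although the 2 lowest differences of all 39, those of Foxr1 and Foxs1, are among them. Their mean was 32.8% and 30.6% in iKO and 32.5% and 35.6% in controls, a difference of -2.34 points with overlapping groups (pooled SD 1.90, exact permutation p = 0.667). Of these bodies, 12 were lower and 9 higher. Other short genes had 2266 lower and 296 higher of 2566 bodies with an island, and 2931 and 302 of 3233 without. Both iKO libraries lay below both controls in 4 of the 21 short forkhead bodies and above them in 2. Among those other genes the shares were 59.0% and 3.12% with an island, and 59.0% and 1.92% without. The long minus short gap was 28.4 and 27.4 points in iKO and 34.5 and 34.3 in controls, a difference of -6.54 points (pooled SD 0.513, exact permutation p = 0.33). That difference is larger than the spread between replicates, and it stayed between -7.04 and -6.04 on the same genes when each library was left out (-5.67 without control replicate 1 where Foxe3 then also has enough reads).

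**Figure D2:**
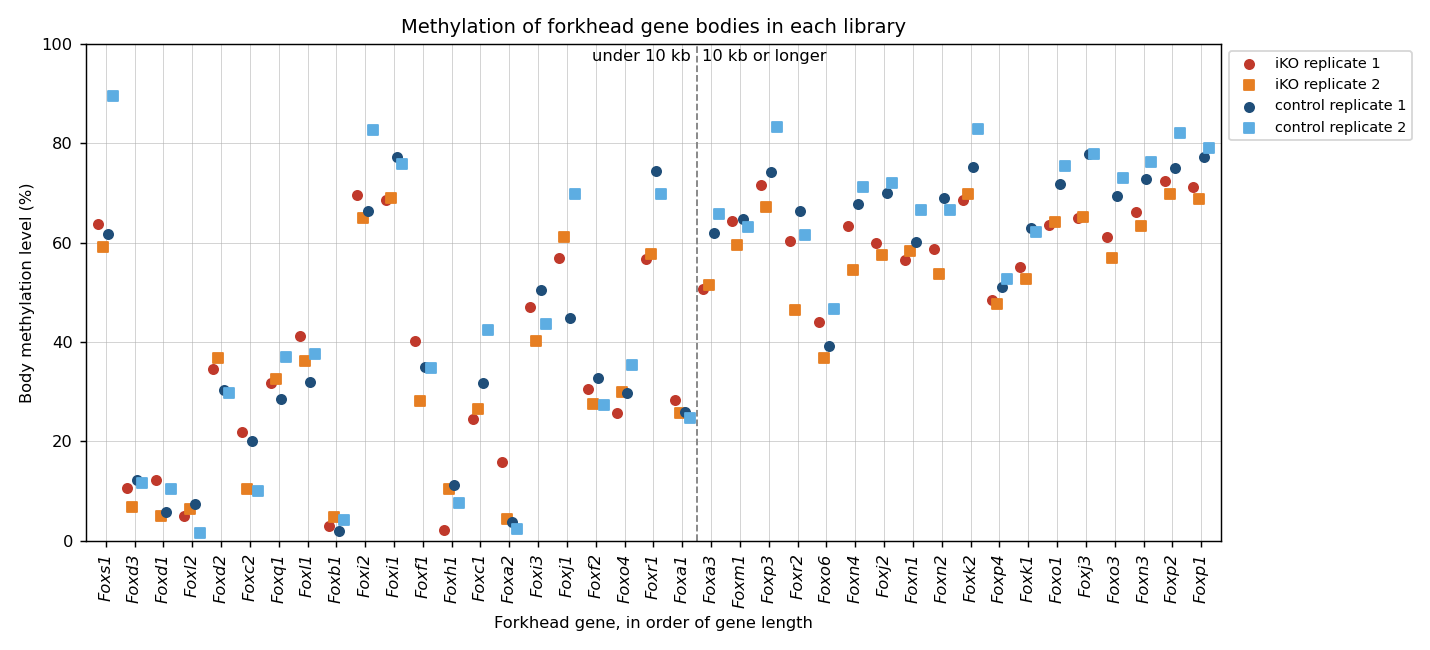
Body methylation level (%, vertical axis) of the 39 forkhead genes with enough reads, ordered by gene length (horizontal axis), with 1 point per library and a dashed line at 10 kb. To the right of the line the iKO points lie below both control points in 16 of 18 genes, and to the left in 4 of 21. Among other genes this holds for 92.7% of long bodies, 59.0% of short ones with an island and 59.0% of those without.

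The short genes fell into 2 kinds by whether they have a measured island, a split made after the values were seen. The 17 with an island had body levels of 25.3% and 23.1% in iKO and 23.7% and 25.3% in controls, a difference of -0.305 points (pooled SD 1.38, exact permutation p = 1), while the median of the 17 differences was 0.46. Leaving out each library moved it between -1.44 and 0.827 points, with the sign turning without iKO replicate 2 (0.827) and without control replicate 2 (0.476). Bodies of the other 2566 short protein-coding genes with an island were lower, at 41.9% in iKO against 49.5% in controls. The forkhead minus other gap was -17.3 and -18.2 points in iKO and -24.6 and -25.3 in controls, and its difference of 7.20 points (pooled SD 0.559, exact permutation p = 0.33) ranged from 6.76 to 7.65 with each library left out. The forkhead bodies also lay at a lower level (24.5% against 49.5% in controls), and the part of level in this gap was not tested. The remaining 4, Foxs1, Foxi1, Foxi2 and Foxr1, had a mean of 63.7% in iKO and 74.7% in controls, a difference of -11.0 points (pooled SD 4.89, exact permutation p = 0.33) that was -6.21 without control replicate 2. Bodies of the other 3233 short genes without an island differed by -7.98.

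Short genes of other patterning families also had small differences. Bodies of short Hox genes differed by 0.657 points (21.3% in iKO, 20.6% in controls), those of short Pax, Lhx, Nkx, sine oculis and Irx homeobox genes by -2.36 and those of short Sox, Tbx and Gata genes by -2.76. The gap between short forkhead genes and the Pax, Lhx, Nkx, sine oculis and Irx genes changed by 0.0196 points between groups (pooled SD 1.30, exact permutation p = 1), that to the Sox, Tbx and Gata genes by 0.415 (pooled SD 0.812, exact permutation p = 0.667) and that to Hox genes by -2.999 (pooled SD 2.30, exact permutation p = 0.33). None of these tests shows that the families act alike, since 2 against 2 libraries cannot reach a p below 0.33.

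The difference varied with the level of a bin, and bins of short forkhead genes had medians near 0 up to a level of 50%. Bins were classed after the values were seen by their mean over all 4 libraries, so the classes favour neither group. Among bins at 10 to 30%, the median difference was 0.502 points in the 49 bins of short forkhead genes, -2.36 in the 47 of long ones and -5.83 in all 28624 bins. At 30 to 50% it was 0.0890 in 34 bins of short genes, -12.1 in 88 of long ones and -11.1 in all bins. At 50 to 70% the short genes had a median of -7.41 points, against -11.3 in all bins, and at 70 to 100% -7.73 against -7.53. Leaving out libraries turned the small medians of the short genes negative. At 10 to 30% the median became -1.26 without iKO replicate 2 and -1.07 without control replicate 2, and at 30 to 50% it became -0.948 without iKO replicate 2 and -2.90 without control replicate 1, while all bins stayed between -6.72 and -5.27 and between -12.3 and -9.92. Bins of 1 gene are not independent, and no test was made of this description.

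**Figure D3:**
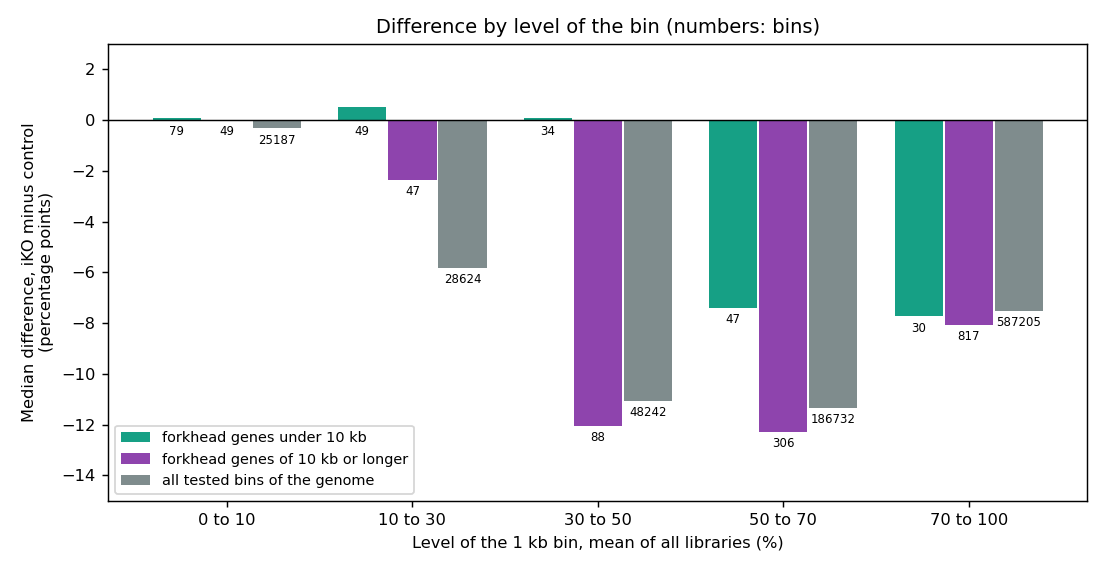
Median difference, iKO minus control (percentage points, vertical axis), of 1 kb bins classed by their mean level over all 4 libraries (%, horizontal axis), for bins of short forkhead genes, of long ones and of all tested bins, with the number of bins at each bar. At 30 to 50% the medians are 0.0890, -12.1 and -11.1 points, and at 70 to 100% they are -7.73, -8.07 and -7.53.

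A gene's body, flank or island was called when a quasi-binomial test on methylated and total reads gave a Benjamini-Hochberg adjusted p under 0.05 over all protein-coding genes and the difference was at least 10 points. Of the 39 bodies, 7 fell and 0 rose (17.9%, with 16.8% of all 19583 bodies called lower), so the forkhead share lies near the background. They were Foxa3, Foxj2, Foxj3, Foxn2, Foxn4 and Foxo3 among the long genes and Foxr1 among the short ones. With the adjusted p alone, 13 passed (background 42.6%), which adds Foxk1, Foxk2, Foxn3, Foxo1, Foxp1 and Foxp2. The calls depend on the test and on single libraries: edgeR called 7 (24.7% of all bodies), limma on logit levels called 0 (6 of all 19583), and of the 7 only Foxj3 and Foxo3 kept an adjusted p under 0.05 without each library in turn. Of the 6 under 10 points, Foxn3, Foxo1 and Foxp1 kept it (at most 0.0155, 0.0339 and 0.0155).

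Foxj3 (chromosome 4, 119539661 to 119629119), a forkhead gene known from spermatogenesis, had body levels of 65.0% and 65.3% in iKO and 77.9% and 77.8% in controls. The replicates were within 1 point of each other in both groups, and the groups were -12.7 points apart (quasi-binomial adjusted p = 0.00626, 1759 to 2389 reads a library over 473 CpGs). Without a library its adjusted p ranged from 0.000618 to 0.0209. Foxj2, its closest relative, had 59.98% and 57.4% against 69.99% and 72.0%, a difference of -12.3 points (quasi-binomial adjusted p = 0.0106). That call was lost without iKO replicate 2 (adjusted p = 0.0758).

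Foxo3 (chromosome 10, 42181845 to 42276695), the FOXO factor best known for stress resistance and stem cell upkeep, had 61.1% and 56.8% in iKO and 69.4% and 73.1% in controls. The groups did not overlap, and the difference of -12.3 points passed (quasi-binomial adjusted p = 0.00717, 0.000103 to 0.0224 without a library). Foxo1 lay at 63.5% and 64.2% against 71.8% and 75.3%, also without overlap, and its -9.72 points fell short of the 10-point size (adjusted p = 0.00818). The X-linked Foxo4 (25.7% and 29.9% against 29.8% and 35.5%, adjusted p = 0.578) and the brain-expressed Foxo6 (44.0% and 36.7% against 39.2% and 46.6%, adjusted p = 0.669) did not pass, with overlapping groups in both.

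Foxn2 (chromosome 17, 88440704 to 88490533) had 58.6% and 53.7% in iKO and 69.1% and 66.6% in controls, a difference of -11.7 points (quasi-binomial adjusted p = 0.0112). Foxn4, a factor of retinal and spinal interneurons, had 63.4% and 54.4% against 67.7% and 71.2%, with a difference of -10.6 (adjusted p = 0.0482). Dropping iKO replicate 2 ended both calls (adjusted p = 0.0798 for Foxn2 and 0.345 for Foxn4), and dropping control replicate 2 ended that of Foxn4 (0.122). The large checkpoint gene Foxn3 (374 kb) had 66.2% and 63.3% against 72.8% and 76.2%, with a difference of -9.74 points (adjusted p = 0.00631). Foxn1 lay at 56.5% and 58.4% against 60.1% and 66.6% (adjusted p = 0.132). In all 4 Foxn bodies both iKO libraries were lower than both controls, as in 82.6% of all bodies and 92.7% of those of other long genes.

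The FOXA pioneer factors had differences of both signs. Foxa3 (chromosome 7, 19013283 to 19023539), the only long one, had 50.7% and 51.4% in iKO and 61.9% and 65.7% in controls, a difference of -12.8 points (quasi-binomial adjusted p = 0.0493). It lost the call without iKO replicate 1 (0.207), iKO replicate 2 (0.216) and control replicate 2 (0.156), and its window holds part of Sympk. Foxa1 had 28.3% and 25.8% against 25.97% and 24.8%, a difference of 1.65 points (adjusted p = 0.769). Foxa2, the endoderm and floor plate factor, had 15.7% in iKO replicate 1 and 4.396% in iKO replicate 2 against 3.66% and 2.41% in controls. This is the highest body difference of the family, 7.03 points (adjusted p = 0.260), and it rests on 1 library of 82 to 91 reads over 40 CpGs.

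The lowest of the 39 body differences was that of Foxr1 (chromosome 9, 44434234 to 44440868), a short gene without an island, with 56.8% and 57.7% in iKO and 74.4% and 69.9% in controls. Its difference of -14.9 points passed (quasi-binomial adjusted p = 0.0390) and did not pass when any library was left out (0.0565 to 0.179). Foxs1 was next by size, at 63.8% and 59.2% against 61.6% and 89.5%, where control replicate 2 alone stood high (-14.1 points, adjusted p = 0.391, 57 to 80 reads).

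The X-linked Foxp3 (-9.28 points, adjusted p = 0.294) and Foxr2 (-10.4, adjusted p = 0.252) had few reads (116 to 192 a library) and did not pass. Foxp1, which shapes transcription in pluripotent cells through a stem cell isoform, and Foxp2, the speech-linked neural factor, are the longest of the family with Foxn3. Foxp1 had 71.3% and 68.8% against 77.3% and 79.1% from 20800 to 24053 reads, a difference of -8.18 (quasi-binomial adjusted p = 0.00626). Foxp2 had 72.4% and 69.8% against 75.1% and 82.1%, a difference of -7.52 (adjusted p = 0.0267). Foxp4 was at 48.5% and 47.7% against 51.0% and 52.7% (-3.73, adjusted p = 0.115).

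Foxk1 and Foxk2, regulators of autophagy and metabolism, had 55.0% and 52.6% against 63.0% and 62.1%, and 68.7% and 69.7% against 75.2% and 82.9%. Their differences of -8.70 and -9.84 points had quasi-binomial adjusted p of 0.0101 and 0.0234 but were under 10 points. Foxm1, the cell cycle factor of dividing cells, had 64.4% and 59.5% against 64.7% and 63.2%, with overlapping groups and a difference of -1.96 points (adjusted p = 0.648).

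The 17 short genes with an island had body values of both signs, from -11.7 points in Foxc1 to 7.03 in Foxa2. Of these, 0 were called (16.8% of all bodies were called lower). Foxa2, Foxb1, Foxl2, Foxd1 and Foxh1 had control means of 3.03% to 9.41% and could not fall by the 10 points of a call. With the adjusted p alone, Foxr1, which has no island, was the only short body to pass. Foxd2, a kidney and head mesenchyme gene, had 34.5% and 36.7% in iKO against 30.3% and 29.7% in controls, above both controls but from only 29 to 49 reads over 10 CpGs (5.59 points, quasi-binomial adjusted p = 0.701). Foxl1, a gene of gut mesenchyme, had 41.2% and 36.3% against 31.9% and 37.5% (4.03 points, adjusted p = 0.669), with overlap. Foxj1, the master gene of motile cilia, had 57.0% and 61.2% in iKO, between control values of 44.8% and 69.8%. Foxd3 had 10.7% and 6.82% against 12.2% and 11.7% (-3.18, adjusted p = 0.643) and Foxh1 2.07% and 10.3% against 11.3% and 7.55% (-3.22, adjusted p = 0.448). Foxc1, a gene of eye and vessel mesenchyme, had the lowest difference of the 17, with 24.4% and 26.5% against 31.8% and 42.5% (-11.7 points, adjusted p = 0.207, 106 to 168 reads). Bodies of all 21 short genes tested span only 1 to 7 bins, against 10 to 594 in long ones. Behind them stand 29 to 340 reads, against 116 to 24053. The part of depth in the number of calls was not tested.

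Flanks, the non-island bins outside the gene within 5 kb, could be tested in all 43 genes and are the better-read comparison for the short ones. Their mean was 48.3% and 47.4% in iKO and 52.9% and 54.4% in controls, a difference of -5.85 points (pooled SD 0.884, two-sided exact permutation p = 0.33). Long genes had -9.77 points (pooled SD 1.27) and short ones -3.03 (pooled SD 0.657), and the long minus short gap differed by -6.73 (pooled SD 0.763, exact permutation p = 0.33). In the short genes with an island the flanks were 37.6% and 37.1% against 39.7% and 39.9%, a difference of -2.45 points, and the gap to other short genes with an island differed by 5.60 (pooled SD 1.33, exact permutation p = 0.33). Against other families, the flank gap of all 25 short forkhead genes differed by -3.90 to short Hox genes (pooled SD 0.864, p = 0.33) and by 3.399 to short Sox, Tbx and Gata genes (pooled SD 1.29, p = 0.33), both without overlap, and by 1.44 to the short Pax, Lhx, Nkx, sine oculis and Irx genes (pooled SD 1.64, p = 0.667, all by exact permutation).

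Of the 43 flanks, 9 fell and 0 rose (20.9%, with 24.5% of all 21291 flanks called lower). They were Foxj1, Foxj3, Foxk1, Foxk2, Foxn1, Foxn2, Foxo3, Foxp4 and Foxr1, of which Foxn2 and Foxo3 kept an adjusted p under 0.05 without each library. In 28 of the 43 both iKO libraries were below both controls and in 4 above them, against 73.2% and 0.756% of all flanks. With the adjusted p alone 11 flanks passed (background 27.3%), and limma on logit levels called 0 (2 of all 21291).

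Foxo3 had the largest flank difference, with 61.6% and 57.0% in iKO and 77.3% and 77.0% in controls, -17.8 points (quasi-binomial adjusted p = 0.00184). Foxn2 had 56.0% and 60% against 71.6% and 76.6%, -16.1 points (adjusted p = 0.00105). Foxr1 had 49.3% and 44.2% against 60.9% and 61.4% (-14.4 points, adjusted p = 0.0116). These 3 genes were thus called in both the body and the flank, and so was Foxj3.

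Foxj1 was the only short island gene called in a flank, at 46.7% and 46.2% in iKO against 60.3% and 59.1% in controls (-13.2 points, quasi-binomial adjusted p = 0.0162). Its window reaches into Rnf157, and the call was lost without iKO replicate 1 (0.0741), iKO replicate 2 (0.121) or control replicate 2 (0.0539). The flank of Foxd3 had 11.2% and 12.1% against 18.1% and 16.6%, without overlap, and its -5.72 points passed the adjusted p (0.0248) but not the size, and no longer passed without any one library (0.0557 to 0.152). In Foxk1, Foxk2, Foxj3, Foxn1 and Foxp4 the flank differences ranged from -12.8 to -10.4 points.

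**Figure D4:**
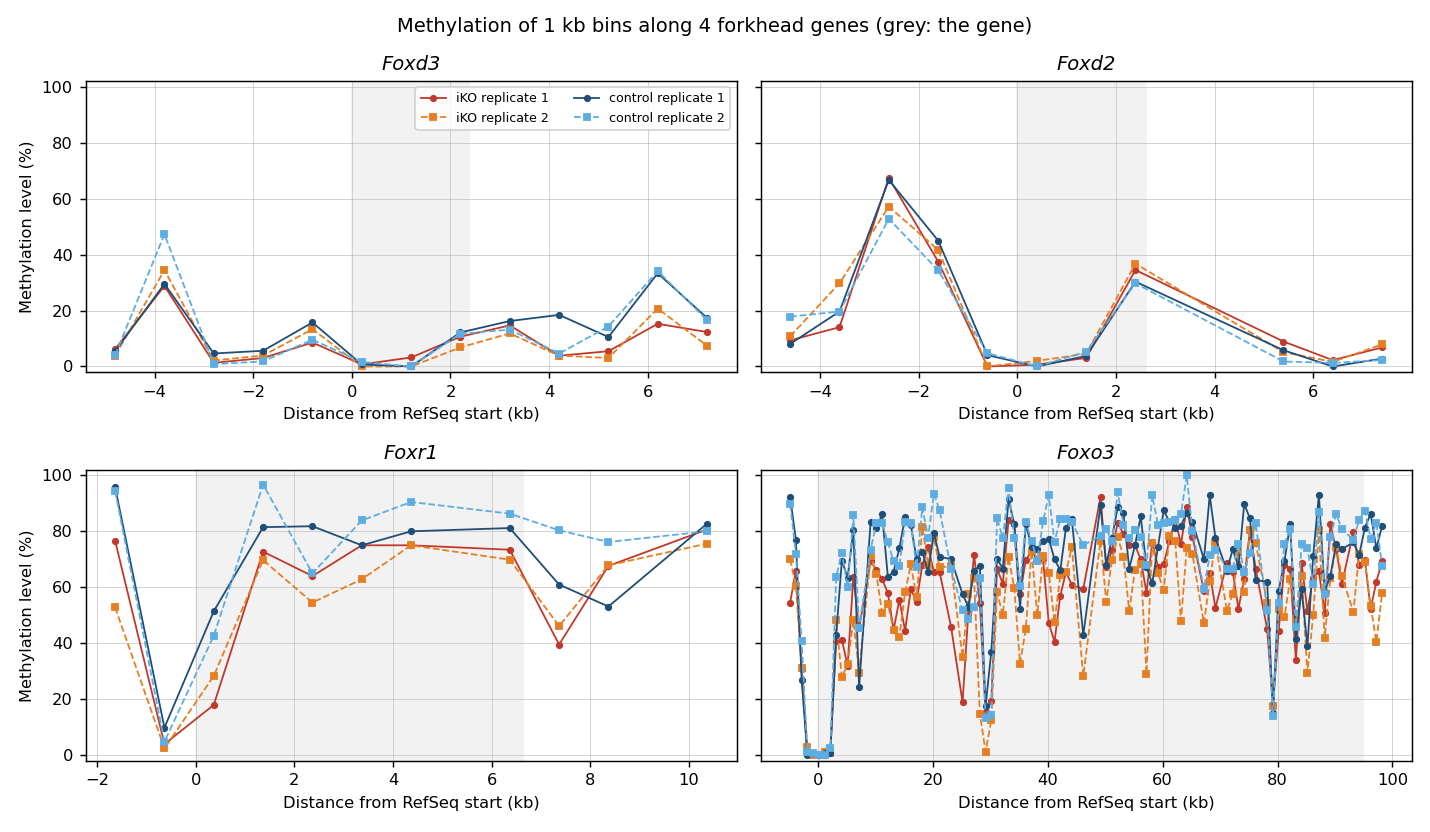
Methylation level (%, vertical axis) of 1 kb bins with enough reads along Foxd3, Foxd2, Foxr1 and Foxo3, by distance from the RefSeq start (kb, horizontal axis) on the gene's strand, with 1 line per library and the gene shaded. The bins near the start of Foxd3, Foxd2 and Foxo3 lie near 0% in every library, and along Foxo3, whose body is at 56.8% to 61.1% in iKO and 69.4% to 73.1% in controls, many bins have lower iKO values.

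The 4 genes of the gene-track plot were chosen after their values were seen. In it Foxd2 shows a low start with a methylated shoulder upstream, where the lines cross, and a single partly methylated bin downstream, where both iKO lines are above the controls, Foxd3 stays under 50% throughout, Foxr1 lies mostly at 50 to 100% outside its start, and Foxo3 leaves its island for a methylated body.

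No single 1 kb bin was called, among 1546 forkhead bins or among all 875990 (percent called 0), and limma on logit levels also called 0. In simulated data the test called no bin even where large changes had been put in, so the 0 says nothing on the presence or absence of changes in single bins. At an unadjusted p under 0.05 there were 234 forkhead bins (228 lower, 6 higher), against 14.5% of all bins. This was 16.4% of the 1307 bins of long genes and 7.95% of the 239 bins of short genes. The bins of lowest difference were inside Foxn3 (chromosome 12, 99377001 to 99378000), with 13.3% and 5.56% in iKO and 51.1% and 49.4% in controls, inside Foxn2 (chromosome 17, 88467001 to 88468000), with 25.7% and 3.70% against 44.1% and 61.9%, and inside Foxo1 (chromosome 3, 52277001 to 52278000), with 37.9% and 33.3% against 64.2% and 83.0%. The highest were inside Foxk1 (142452001 to 142453000 on chromosome 5), with 62.2% and 77.8% in iKO and 44.4% and 48.8% in controls, and inside Foxn3 (99347001 to 99348000), with 72.7% and 53.3% against 41.0% and 40.6%. In each of these bins the groups did not overlap, and the quasi-binomial adjusted p was 0.279 to 0.350. They were picked for the size of their difference, and over all bins 44.4% were lower and 3.48% higher without overlap.

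Genes that act around the forkhead factors were taken from lists chosen with earlier results of these data known. Of 15 genes that regulate FOXO factors, such as the PI3K and AKT chain, the deacetylase Sirt1 and the deubiquitinase Usp7, 15 bodies were tested and 4 were called lower (Mdm2, Pik3cb, Sirt1 and Usp7; 16.8% of all bodies were), 0 higher, with a median difference of -8.89 points against -8.33 over all bodies. Sirt1 had 48.0% and 52.5% in iKO against 65.6% and 68.9% in controls (quasi-binomial adjusted p = 0.0118), and Usp7 49.6% and 46.8% against 61.9% and 63.9% (adjusted p = 0.00626). Pik3cb and Usp7 kept an adjusted p under 0.05 without each library, and Mdm2 and Sirt1 lost it without iKO replicate 1 (0.0633 and 0.0648), Mdm2 also without iKO replicate 2 (0.103). In islands 0 of 14 were called.

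Of the 12 genes of Nodal signalling that meet FOXH1, 11 bodies were tested and 2 were called lower, Acvr2b, an activin receptor, and Nodal, the ligand, with a median of -8.23 points. That share lies near the 16.8% of all bodies. Nodal had 17.7% and 19.7% in iKO and 34.1% and 32.6% in controls (-14.6 points, quasi-binomial adjusted p = 0.0279). The call of Nodal was lost without iKO replicate 1 (0.157), iKO replicate 2 (0.139) or control replicate 2 (0.0563), and that of Acvr2b without iKO replicate 1 (0.0631). The antagonist Lefty1 had 13.5% and 13.3% against 13.9% and 13.9% (adjusted p = 0.936). In flanks 4 of 12 were called lower (Nodal, Smad2, Smad4 and Tdgf1), against 24.5% of all flanks, and in islands 0 of 11. Of those 4 flanks only Tdgf1 kept its adjusted p without each library, and the Smad2 flank went from -10.2 points to -1.34 without control replicate 2 (adjusted p = 0.866). The flank median of this list was -9.15 points, against -8.23 over all flanks.

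For the labelled cell type only methylation could be read. The 1 kb around the starts of the pluripotency genes Nanog, Pou5f1, Sox2 and Zfp42 lay between 0% and 12.0% in all 4 libraries, and of 4 pluripotency bodies tested 1 was called lower (Nanog, lost without iKO replicate 2 at 0.209 or control replicate 2 at 0.0662), against 16.8% of all bodies. Of their 5 flanks 2 were called lower (Dppa3 and Zfp42, against 24.5% of all flanks). Of the fibroblast genes with a matched promoter, Col1a2 and Twist2 were also low at their starts, at 0% to 9.68%, and Col3a1 was high, at 64.3% to 100% from 13 to 22 reads. Of 6 fibroblast bodies 2 were called lower (Col1a1 and Twist2, both lost without iKO replicate 2, at 0.117 and 0.109, and Col1a1 also without iKO replicate 1, at 0.0671). Of 6 flanks 1 was called (Col3a1, lost without iKO replicate 2 at 0.153 or control replicate 2 at 0.173). These levels do not tell stem cells from feeder cells, and the part of remaining feeders was not tested.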

How the data were processed

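Whole-genome bisulfite libraries were 2 of Ogt iKO and 2 of control stem cells. The deposited tables give read counts per CpG (methylated reads, and the C or T total), per the file headers, beside an expected count (the C or T depth corrected for C/T variants) and a methylation fraction made by the authors. The submitters' processing notes name BSMAP, Picard and mm10. Versions and read filters are not given in the sources used here.

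Reads were joined by position (Python 3.11.15, pandas 2.3.3, NumPy 2.4.6, PyArrow 21.0.0) and pooled over a fixed 1 kb grid, a bin belonging to the gene or window that holds its centre. Regions needed at least 5 used CpGs and 20 reads in every library, and reads of 1 fragment cover neighbouring CpGs, so counts are not independent molecules. Floors for 0 methylated reads take 3 counts and cover counting error only. Gene spans are those of RefSeq (GRCm38.p6), without exons, and strand was known for the 28 genes with a promoter. All 690 CpGs of the forkhead promoter sequences were listed in the tables. Windows of 15 genes hold part of another protein-coding gene.

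Group values are means over genes, compared by exact permutation (SciPy 1.17.1). Regions and bins were fitted in R 4.3.3 with a quasi-binomial logistic model, dispersions moderated with limma 3.58.1 over all features and kept at 1 or more, with Benjamini-Hochberg adjustment over all protein-coding genes of a region class or all bins. edgeR 4.0.16 and limma on logit levels (0.5 reads added) were alternatives, and where a library is left out, the single one remaining borrows the spread of the other arm. The fits of bodies, flanks and bins were tested on simulated data, and those of islands were not. A first simulation with 1 constant spread led to few called bodies and no called bins. The simulation, not the test, was then given the spread of the real features, and most changed bodies and flanks were called but still no bins. The changes put in were larger than any forkhead body or flank difference reported here. Recovery of smaller changes was not tested.

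The genes, lists and rules were chosen with earlier results of these data known. Flank results of the list of FOXO regulators are not reported here. Named are the called genes, the 5 lowest and 5 highest body differences, genes with a methylated densest bin or without an island, the 3 shortest and 3 longest, and 7 genes known from stem cells. The islands split of short genes, level classes, start windows, printed promoters, plotted tracks and the alternatives for them were chosen after seeing the data.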

Additional observations from a re-analysis of the deposited data

How the results depend on the processing

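The mean island difference of the forkhead genes, 0.143 points, turned negative with island bins of at least 30 CpGs (-1.15) and without Foxj3 (-0.0079), and ranged from -0.0219 to 0.146 with 1 library left out, with -0.0051 without control replicate 1 and -0.0219 without control replicate 2, runs that each add 1 gene. On the same 35 genes it ranged from 0.0909 to 0.194. It was 0.414 as an unweighted mean of CpG levels and 0.278 with at least 70 CpGs. With CpGs of at least 5 reads in every library, the body difference was -10.2 points, the flank difference -7.28 and the long minus short difference -5.90, from few genes. The last was also -7.68 unweighted, -7.51 with 30 CpGs, -5.61 with short genes under 20 kb, and -7.04 to -5.67 with 1 library left out (-7.04 to -6.04 on the same genes). Called bodies, 7 in the main test, were 13 with the adjusted p alone or with at least 5 points, 2 of 13 tested with CpGs of at least 5 reads, 0 with limma on logit levels (6 over all genes) and 3 to 10 with 1 library left out (3.13% to 34.7% of all bodies). Called flanks, 9 in the main test, were 0 of 6 tested with CpGs of at least 5 reads, 0 with limma on logit levels (2 over all genes) and 2 to 11 with 1 library left out (3.21% to 33.3% of all flanks). With CpGs of at least 5 reads, 11.1% of all bodies and 0.775% of all flanks tested were called. The replicate block gave 4 called forkhead bodies (8.90% of all bodies). The replicate numbers are only shared names, with a correlation of deviations of -0.0164 over 1546 bins. The cause of each change was not tested. Forkhead island and bin calls were 0 in every setting run, and over all genes edgeR called 1 island and the use of all listed CpGs gave 15 called bins of 978008. In the main test a lower call of a forkhead island was out of reach, since the control means were all below the 10-point size. Forkhead islands could not be tested with CpGs of at least 5 reads. Depth limits the precision of single bins (20 reads or more a library) and of the bodies of short genes (29 to 340), and its part in the calls was not tested.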

Other observations

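The CpG-densest bin of Foxj3 (chromosome 4, 119539001 to 119540000) had 24 methylated of 133 reads in iKO replicate 2, a single count at each of 24 CpGs between 119539648 and 119539818. Neighbouring CpGs can lie on the same fragment, and how many molecules gave these counts was not tested. The other libraries had 0 methylated among 107 to 195 reads, which allows 1.54% to 2.80%. A similar island reading in a single library was not searched for elsewhere.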
